A study of Mus musculus with 4 samples.

Results

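The genes described here are 9 genes of iron and metal handling in mouse liver: the hepcidins Hamp and Hamp2, the ligand Bmp6, its target Id1, the iron exporter Slc40a1 (ferroportin), the iron carrier Trf (transferrin), its receptor Tfrc, and the metallothioneins Mt1 and Mt2. They were taken by their gene names in the scanner files, leaving out control spots, and they are 9 of 34761 genes on the array. They are read by 13 of 55681 probes, which fill 22 of 59305 spots. Liver RNA came from male C57BL/6 mice that were 5 weeks old when a high-fat, high-sucrose diet began, and that ate it for 0, 5, 10 or 15 weeks. The mice at 0 weeks are the only controls, and all groups share strain and sex. Age moves with time on the diet, from 5 weeks of age in the 0-week group through 10 and 15 to 20 weeks of age in the 15-week group, so that diet and age cannot be told apart. The study's text gives 4 mice at each time, but there is 1 array per time, and whether the RNA of the 4 mice was pooled is not stated. No spread between mice can therefore be had and no test was made; a gene is called higher or lower where its signal differed at least 2-fold between 2 arrays.

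Hepcidin is a peptide hormone that hepatocytes secrete; it binds ferroportin, the iron exporter of macrophages, enterocytes and hepatocytes, and has it degraded, so that less iron reaches the plasma. BMP6, made mostly by the sinusoidal endothelial cells of the liver, binds receptors on hepatocytes together with the co-receptor hemojuvelin, and the SMAD proteins this activates turn on Hamp and also Id1. The cytokine IL-6 turns on Hamp through STAT3. In the plasma iron travels bound to transferrin and enters cells through the transferrin receptor, whose messenger RNA is held stable by iron regulatory proteins when cellular iron is low. Metallothioneins are small, cysteine-rich proteins that bind zinc and copper, and the liver makes them in response to these metals, glucocorticoids and inflammation. The mouse carries a pair of hepcidin genes side by side; the product of Hamp is the iron hormone, while the product of Hamp2 is not known to control iron.

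Because the hepcidin genes are so alike, the 60-base probes that tell them apart are shown first, each 5' to 3', with the aligned bases that differ between them in capitals.

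Hamp, probe A_52_P669922: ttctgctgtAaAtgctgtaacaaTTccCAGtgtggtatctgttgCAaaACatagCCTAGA
Hamp2, probe A_52_P21486: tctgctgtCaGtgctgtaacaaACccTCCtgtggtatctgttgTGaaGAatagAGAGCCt

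The Hamp probe lies at chr7:31727490-31727549 and the Hamp2 probe at chr7:31707520-31707579, each on the minus strand of mm9 as the scanner files give it. Set against each other without gaps and shifted by 1 base, the probes share 42 of 59 bases (71.2%), 17 differ, and the longest run they share is 14 bases. RNA of either gene could bind the other's probe in part, and the share of each signal that comes from the other gene was not measured.

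Across the 9 genes, Hamp2 was lower on every array after 0 weeks and Id1 was higher on every one. Tfrc was lower at each later time than at the one before it (by only -0.04 between 10 and 15 weeks with spike-in scaling). Mt2 and the brighter Mt1 probe were lowest at 15 weeks, while the dimmer Mt1 probe was lowest at 5 weeks. For Mt1 and for Mt2, 9 of 10 alternatives kept 15 weeks below 5 weeks. Hamp itself, Bmp6, Slc40a1 and Trf stayed within 2-fold of 0 weeks at every time. At 5 weeks 1 gene of the 9 was called higher and 1 lower, beside 3.87% of the 17095 genes measured on both arrays that were called in either direction (2.3% higher and 1.57% lower). At 10 weeks 1 was higher and 2 were lower, beside 4.45% of all measured genes (2.92% higher, 1.53% lower). At 15 weeks 1 was higher and 4 were lower, beside 10.8% (5.76% higher, 5.03% lower). The 9 genes were chosen with earlier results of these data known, so that their larger share of calls is a description of these genes only. The 3 comparisons share the 0-week array, and a value that stood out on it would enter all of them.

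**Figure D1:**
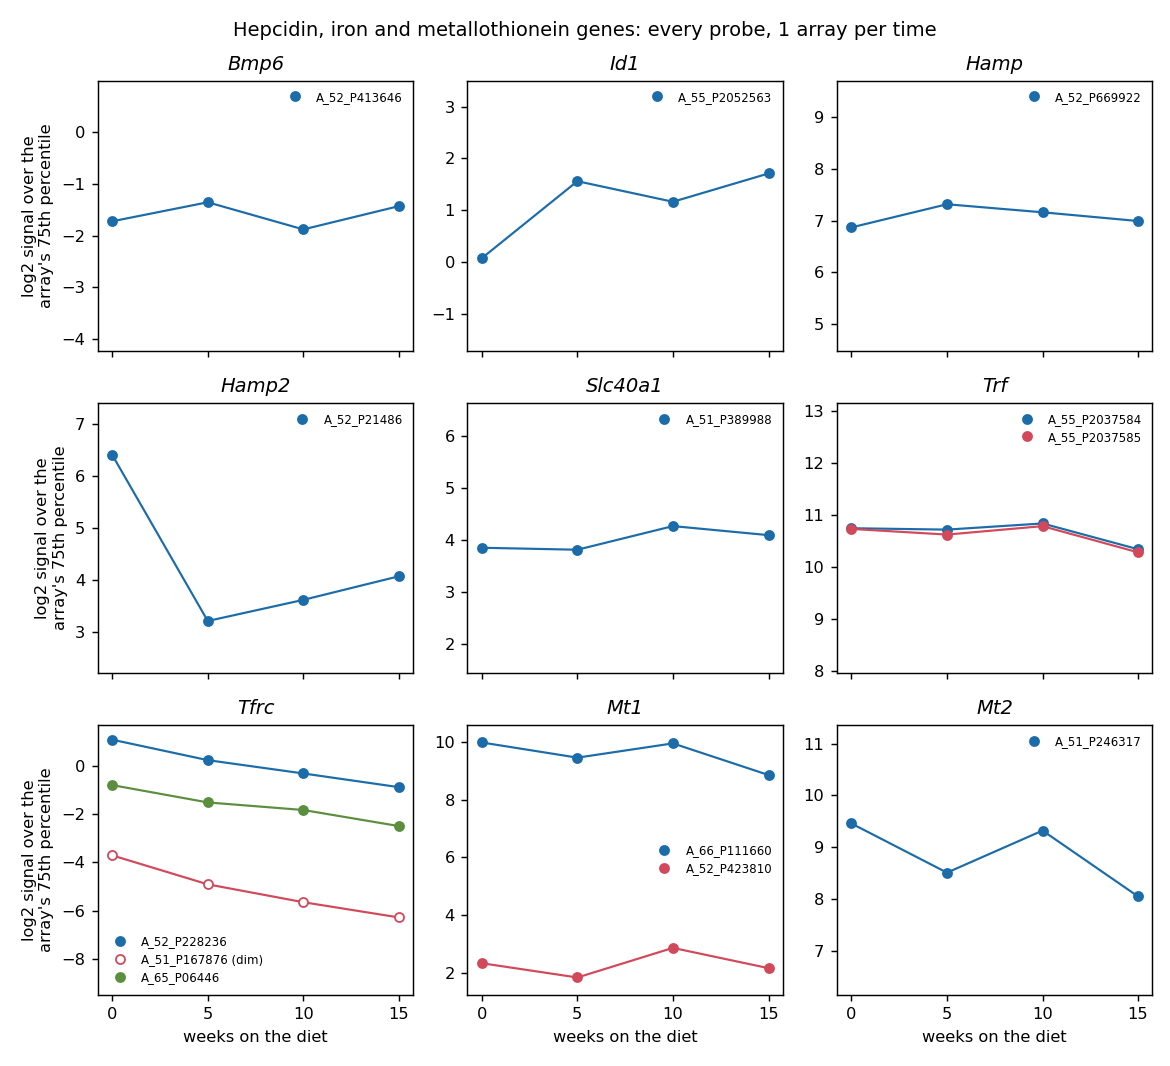
Scaled log2 signal (vertical axis; the range differs between panels) of every probe of the 9 genes against weeks on the diet (horizontal axis), 1 array per time, with open circles where a probe was not well above background. Hamp2 drops after 0 weeks from 6.41 to 3.21, Id1 goes from 0.08 to 1.56, Tfrc steps down at each time, and the Hamp, Slc40a1, Bmp6 and Trf panels stay within 2-fold.

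Levels are given as log2 of the processed signal over the 75th percentile of the same array, so that 0 means a signal equal to that percentile. That percentile was 193.7 to 208.2 at 0, 5 and 10 weeks and 271.6 at 15 weeks. Between 44.5% and 48.3% of the probes were well above background, no spot was saturated, and none of the genes' spots lay in a locally bright patch. For probes printed 10 times on an array, the median SD of the log2 signal among the repeats was 0.0637 to 0.0744, which puts the SD of a difference between 2 single spots at 0.105 from spot noise alone. The median measured gene was shifted by -0.02 at 5 weeks and -0.01 at 10 weeks, but by -0.25 at 15 weeks, and other scalings moved that last median to between -0.18 and 0.25. At 15 weeks 53.4% of the called genes were higher, against 60.6% to 86.1% under 5 other scalings. At 10 weeks the share was 65.5%, and 54.3% with scaling to the array median. Fewer cells of a type and less RNA per cell cannot be told apart in these whole-liver samples.

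Bmp6, the ligand at the head of the pathway, was measured by 1 probe (A_52_P413646, chr13:38591479-38591538, plus strand) that was well above background on all arrays. Its scaled log2 signal was -1.73 at 0 weeks, -1.36 at 5 weeks, -1.88 at 10 weeks and -1.43 at 15 weeks. All values lay within 1.44-fold of each other, with no single direction over time. From lowest to highest the order was 10, 0, 15 and 5 weeks, and within it only the step from 0 to 15 weeks (a difference of 0.29) was over 2 times the spot-noise SD. That SD is a median over repeated probes. The Bmp6 probe is dim, with a processed signal of 53 to 101 on 1 spot, so its own spot noise was not measured and may be larger. Relative to the median gene, the 15-week difference was 0.54. Markers of sinusoidal endothelial cells, the known source of this ligand, gave 0 calls among the 11 or 12 measured, though Wnt2, not well above background at 15 weeks, was at least 2.42-fold lower there than at 0 weeks, and their summed scaled signal was 117, 139, 129 and 102 at 0, 5, 10 and 15 weeks.

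Id1, a helix-loop-helix inhibitor of differentiation that BMP-activated SMADs induce, was higher at every time on the diet. Its probe (A_55_P2052563, chr2:152563083-152563142, plus strand) gave a scaled log2 signal of 0.08 at 0 weeks, 1.56 at 5 weeks, 1.16 at 10 weeks and 1.71 at 15 weeks. The 3 later arrays lay well above the 0-week array and close to each other, with 5 and 15 weeks 0.15 apart. Against 0 weeks Id1 was 2.80-fold higher at 5 weeks, and 2.13-fold at 10 weeks, and at 15 weeks its log2 difference of 1.63 was 1.88 relative to the median gene. Of 16684 genes well above background on all 4 arrays, 145 (0.869%) were at least 2-fold higher at all of these times, Id1 among them. The 10-week call is the one that depended on the processing: the log2 difference of 1.09 was 0.99 with the array median or the deposited values and 0.88 with normexp background correction.

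Id1 is made in endothelial cells as well as in hepatocytes, and markers of other cell types were read beside it. Of 14 macrophage markers 13 were measured, and 3, 10 and 9 of them were at least 2-fold higher at 5, 10 and 15 weeks. Their summed scaled signal was 169 at 0 weeks, 294 at 5 weeks, 367 at 10 weeks and 420 at 15 weeks. Of 10 stellate cell markers, 1 was lower at 5 and at 10 weeks (Des, desmin, with -1.12 and -2.09) and 3 were higher at 15 weeks, with sums of 251, 309, 250.4 and 320. The part of these cells in the Id1 result was not tested.

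Hamp, the hepcidin that acts on iron, was bright and within 2-fold throughout. Its processed signal was 24319 at 0 weeks, 33055 at 5 weeks, 27691 at 10 weeks and 34549 at 15 weeks, which after scaling gave log2 values of 6.87, 7.31, 7.16 and 6.99. The 5-week array was the highest and the 0-week array the lowest, and the whole range was 1.36-fold. In the order 0, 15, 10 and 5 weeks, each array differed from the next by less than 2 times the spot-noise SD, while the ends of that order, 0 and 5 weeks, differed by more than 4 times it. Against 0 weeks the log2 difference was 0.45 at 5 weeks, 0.29 at 10 weeks and 0.12 at 15 weeks, or 0.37 relative to the median gene at 15 weeks. No alternative processing brought any comparison of Hamp to 2-fold, though the small difference between 10 and 15 weeks, -0.17, ran up to 0.36 under other scalings.

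Hamp2 was the gene of the 9 with the widest range. The processed signal of its probe was 17727 at 0 weeks, 1918 at 5 weeks, 2372 at 10 weeks and 4561 at 15 weeks. On the scaled log2 axis these are 6.41, 3.21, 3.61 and 4.07. The 0-week array stood far above the others, which were in order of time, with 5 weeks lowest. The fold below 0 weeks was 9.22 at 5 weeks, 6.95 at 10 weeks and 5.07 at 15 weeks. At 5 weeks Hamp2 was the 9th lowest of 17095 measured genes by its difference, at 10 weeks the 20th lowest of 17143, and at 15 weeks the 98th lowest of 17562. Only 79 of 16684 genes (0.474%) were at least 2-fold lower at all of these times, and Hamp2 was one of that group. Between 5 and 15 weeks Hamp2 was 1.82-fold higher, with a log2 difference of 0.86 that passed 2-fold in 4 of 10 alternatives, at 1.04 to 1.31.

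The Hamp2 calls against 0 weeks held in all 10 alternatives (of which the array median and the deposited values, being that same scaling, are nearly 1 and the same), with log2 differences of -3.27 to -3.08 at 5 weeks, -2.90 to -2.70 at 10 weeks and -2.34 to -1.84 at 15 weeks. The whole signal of the Hamp2 probe at 5 weeks, including whatever Hamp RNA added to it, was 1918, on an array where the Hamp probe was at its highest scaled level. Hepcidins are hepatocyte genes, and all 14 hepatocyte markers were well above background on all arrays. Their summed scaled signal was 19015 at 0 weeks, 17250.4 at 5 weeks, 18211 at 10 weeks and 12495 at 15 weeks, a sum that the brightest of them dominate. None of the 14 was called at 5 weeks, and Cps1 was lower at 10 weeks (-1.14), with a second probe of Ass1 at -1.01. Cps1, Hpd, Tdo2 and Ass1 were lower at 15 weeks, when all 14 had a difference below 0 on the probe read for each. Second probes then gave 0.10 for Apoc3, and -0.36, -0.77 and -1.37 for Apoa2, Serpina1a and Ass1. The median of the 14 was then -0.59, or -0.34 relative to the median gene, which was itself at -0.25 and moved with the scaling. The part of these hepatocyte differences in the Hamp2 result was not tested.

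The stretches just upstream of the hepcidin genes are shown next, since these neighbours took such different courses over time. Each line is the 250 bases before the annotated start in RefSeq's GRCm38.p6 assembly, written 5' to 3' on the gene's own strand, which is the minus strand. Hamp is at chr7:30944030-30944279 and Hamp2 at chr7:30924182-30924431; the only other annotated gene that starts between their starts is the pseudogene Usf2-ps1. Capitals mark matches to GGCGCC, the core of the BMP-responsive element described upstream of hepcidin genes, and to TTCNNNGAA, a STAT-binding motif. Both strands were searched, and the motifs overlap nowhere here.

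Hamp upstream: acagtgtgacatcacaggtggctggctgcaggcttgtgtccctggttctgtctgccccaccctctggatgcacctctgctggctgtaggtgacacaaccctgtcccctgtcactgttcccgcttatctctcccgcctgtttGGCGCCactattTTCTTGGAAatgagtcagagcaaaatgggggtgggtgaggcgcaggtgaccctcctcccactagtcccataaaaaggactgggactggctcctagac
Hamp2 upstream: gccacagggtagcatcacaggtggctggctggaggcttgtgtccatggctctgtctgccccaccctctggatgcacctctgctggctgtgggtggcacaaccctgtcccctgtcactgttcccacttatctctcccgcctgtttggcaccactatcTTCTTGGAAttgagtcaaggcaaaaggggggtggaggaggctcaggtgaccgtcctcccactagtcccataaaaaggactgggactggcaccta

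Aligned without gaps, these stretches share 227 of 247 bases (91.9%). The Hamp stretch holds GGCGCC at 109 to 104 bases before the start, and the letters aligned to it in Hamp2, which begin 106 bases before that gene's start, differ by G4A, counted from 1 at the 5' end of the element. TTCTTGGAA is present in each, at 97 to 89 bases before the start of Hamp and 94 to 86 bases before that of Hamp2. Of 32851 promoter windows of this length in the same annotation, 9.59% held GGCGCC, 7.02% held TTCNNNGAA and 0.368% held both. A match is a description of the letters and not of binding, and the reference strain's sequence was used. Promoters of 6 of the 9 genes were in the annotation given; those of Slc40a1, Id1 and Trf were not used here.

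Slc40a1 encodes ferroportin, the exporter that hepcidin removes from the cell surface, and in liver it is strongest in Kupffer cells, the resident macrophages. Its probe (A_51_P389988, chr1:45965255-45965314, minus strand) gave scaled log2 signals of 3.85 at 0 weeks, 3.82 at 5 weeks, 4.27 at 10 weeks and 4.10 at 15 weeks. The arrays lay within 1.37-fold of each other, 10 weeks highest, and none of the 6 comparisons was called under any alternative. Against 0 weeks the log2 difference was -0.04 at 5 weeks, 0.42 at 10 weeks and 0.24 at 15 weeks, the last being 0.49 relative to the median gene. In the order 5, 0, 15 and 10 weeks, the step between 0 and 15 weeks alone was over 2 times the spot-noise SD. Most macrophage markers were higher over the same time, as given beside Id1; among them Adgre1, a macrophage surface receptor, had a log2 difference of 1.36 at 10 weeks and 1.67 at 15 weeks, and Clec4f, a lectin of Kupffer cells, 1.08 and 0.58. Timd4, a receptor of resident Kupffer cells, went the other way, with -0.71, -0.05 and -0.98 at 5, 10 and 15 weeks, from a spot among locally bright neighbours on 1 array. Cd163, a scavenger receptor of macrophages, was above background at 5 weeks alone and at least 2.42-fold lower at 15 than at 5 weeks. The part of these cells in the Slc40a1 values was not tested.

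Trf, the plasma iron carrier that hepatocytes secrete in bulk, was read by 2 probes that behaved alike. Probe A_55_P2037584 (chr9:103111207-103111266, minus strand) gave scaled log2 signals of 10.75, 10.72, 10.84 and 10.34 at 0, 5, 10 and 15 weeks. Probe A_55_P2037585 (chr9:103112826-103112885, minus strand) gave 10.73, 10.62, 10.79 and 10.28. On each probe 15 weeks was lowest and 10 weeks highest, over a range of 1.41-fold for the first. The 15-week difference from 0 weeks was -0.41 for the first probe and -0.45 for the second, or -0.16 relative to the median gene for the first, and 3 of 10 alternatives turned its sign (up to 0.10). Differences at 5 and 10 weeks, -0.03 and 0.09, were below the spot-noise SD.

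Tfrc, the receptor that takes iron-laden transferrin into cells, was lower at each later time. It has 3 probes, the first of which (A_52_P228236, chr16:32632255-32632314, plus strand) is printed on 10 spots of every array. The mean scaled log2 signal of these spots was 1.07 (SD 0.0871, 10 spots) at 0 weeks, 0.23 (SD 0.0821) at 5 weeks, -0.32 (SD 0.170) at 10 weeks and -0.89 (SD 0.0652) at 15 weeks. The lowest and highest spots were 0.98 and 1.27 at 0 weeks, 0.10 and 0.38 at 5 weeks, -0.67 and -0.14 at 10 weeks, and -0.996 and -0.80 at 15 weeks. At this scaling no spot of any time reached into the range of another time. Before scaling, the spots at 10 weeks (processed signal 122 to 176) and at 15 weeks (136 to 156) overlapped. The spread of repeated spots is technical and holds nothing of the spread between mice.

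Against 0 weeks Tfrc was 1.80-fold lower at 5 weeks, 2.63-fold at 10 weeks and 3.90-fold at 15 weeks, of which the last pair passed 2-fold. A second probe (A_65_P06446, chr16:32620470-32620529, plus strand) went down in the same order, at -0.81, -1.52, -1.84 and -2.50, which put it -0.72, -1.03 and -1.70 from 0 weeks on the log2 scale. The third probe (A_51_P167876, chr16:32624877-32625093, spanning 217 bases of the genome) was not well above background on any array and gives no fold. Relative to the median gene, the 15-week log2 difference of the first probe was -1.71. The calls at 10 and 15 weeks held in all 10 alternatives, with ranges of -1.50 to -1.10 and -2.08 to -1.46.

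**Figure D2:**
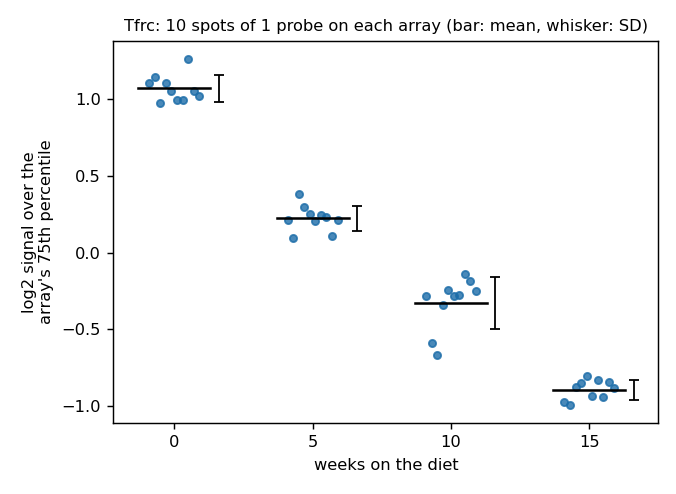
Scaled log2 signal (vertical axis) of the 10 spots of the Tfrc probe A_52_P228236 on each array against weeks on the diet (horizontal axis); points are spots of 1 array, lines their mean and whiskers their SD. At this scaling the 4 clouds of spots do not overlap, from 0.98 to 1.27 at 0 weeks down to -0.996 to -0.80 at 15 weeks.

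The step between 10 and 15 weeks was the least firm. Its log2 difference of -0.57 was -0.33 relative to the median gene, and under alternatives it ran from -0.62 to -0.04, the last with spike-in scaling and smaller than the spot SD at 10 weeks. Of the 16684 genes above background on all arrays, 2225 (13.3%) were lower at each later time than at the one before, and 6 (0.0360%) were so by at least 0.5 on the log2 scale at every step. Those 6, a set and threshold chosen after the values were seen, were Tfrc, the acyl-CoA thioesterase Acot5, the urea cycle enzyme Asl, Cyp4a32, Eif4ebp3 and Slc13a2.

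Maturing red cells carry the most transferrin receptor of any cell, and erythroid markers were looked at beside it. Among 11 such markers on the array, Epb42, Ahsp and Rhag were not above background on any array. The erythroid sum, nearly all of it globin signal, was 1328 at 0 weeks, 1000.2 at 5 weeks, 1061 at 10 weeks and 821 at 15 weeks. Klf1, the erythroid transcription factor, had log2 differences of -0.98, -0.44 and -1.80 at 5, 10 and 15 weeks, and was the only one of 6 measured erythroid markers called, at 15 weeks. Both the sum and Klf1 were higher at 10 than at 5 weeks. The part of red-cell precursors or blood in the Tfrc result was not tested.

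Mt2, a metallothionein of nearly all tissues, alternated between arrays. Its probe (A_51_P246317, chr8:96697371-96697430, plus strand) gave scaled log2 signals of 9.46 at 0 weeks, 8.51 at 5 weeks, 9.32 at 10 weeks and 8.05 at 15 weeks. The 0- and 10-week arrays lay together at the top, and the 5- and 15-week arrays lay below them. Mt2 was 1.93-fold lower at 5 weeks than at 0 weeks, 1.75-fold higher at 10 than at 5 weeks, and 2.41-fold lower at 15 than at 10 weeks. The difference of 15 from 0 weeks, 2.65-fold, was the other call, with a log2 difference of -1.41, or -1.16 relative to the median gene. At 5 weeks the log2 difference of -0.95 was just short of the 2-fold line, and it was -1.01 with scaling to the array median.

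Mt1, its neighbour on chromosome 8, with no annotated gene starting between them, showed the same order of arrays on its brighter probe. Probe A_66_P111660 (chr8:96704165-96704224, plus strand) gave scaled log2 signals of 9.98, 9.45, 9.95 and 8.85 at 0, 5, 10 and 15 weeks. The 15-week array was lowest, 2.19-fold below 0 weeks and 2.14-fold below 10 weeks, while 0 and 10 weeks differed by less than spot noise. The dimmer probe, A_52_P423810 (chr8:96703844-96703903, plus strand), gave 2.32, 1.83, 2.85 and 2.15. It agreed that 5 weeks lay below its neighbours, with 10 weeks 2.04-fold higher than 5 weeks, but it put 15 weeks only -0.17 from 0 weeks on the log2 scale, where the brighter probe gave -1.13. The Mt1 probes thus disagree on whether 15 weeks was 2-fold lower, and which of them is right was not tested.

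The metallothionein calls at 15 weeks also depended on the scaling. Relative to the median gene the Mt1 difference was -0.88, under 2-fold, and 5 of 10 alternatives lost its call, at -0.93 to -0.44. The Mt2 call was lost in 3 of 10, at -0.91 to -0.84. All alternatives kept each gene lower at 15 than at 0 weeks. The hepatocyte sum was likewise lowest at 15 weeks, as given beside Hamp2, and its part in the metallothionein result was not tested.

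**Figure D3:**
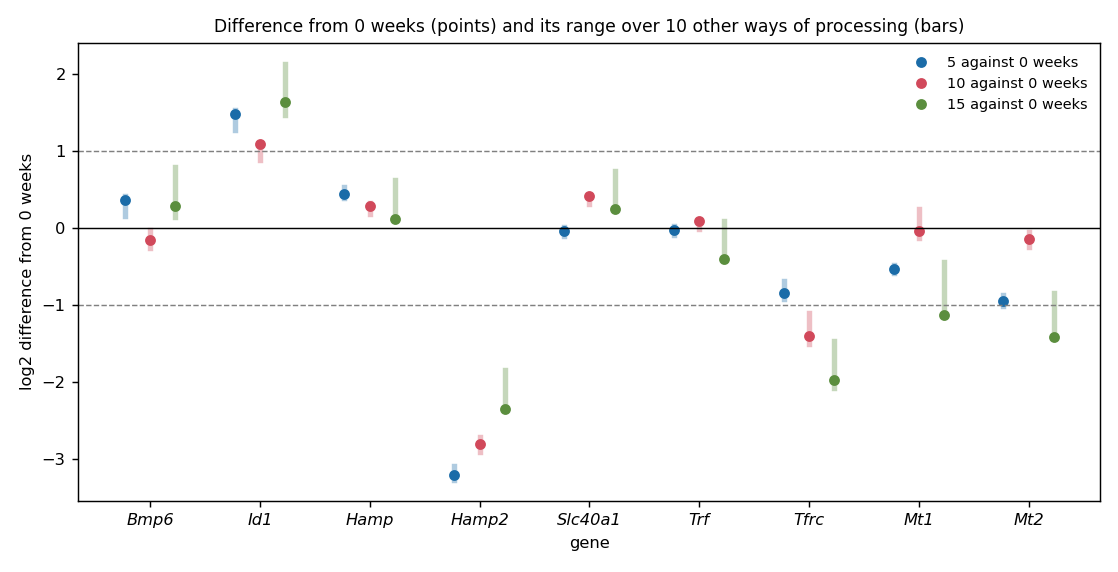
Log2 difference from 0 weeks (vertical axis) of each of the 9 genes (horizontal axis) at 5, 10 and 15 weeks (points), with the range over 10 other ways of processing as bars; dashed lines mark 2-fold. The Hamp2 bars stay beyond the 2-fold line at all times, the Tfrc bars at 10 and 15 weeks and the Id1 bars at 5 and 15 weeks, while the 15-week bars of Mt1 and Mt2 cross it.

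Successive times were compared as well. Between 5 and 10 weeks none of the 9 genes was called, beside 2.09% of all measured genes (0.953% higher, 1.13% lower). Between 10 and 15 weeks Mt1 and Mt2 were called lower, beside 8.01% of genes called (3.95% higher, 4.06% lower), and 7 of 10 alternatives lost the Mt1 call (-0.92 to -0.51) and 3 of 10 the Mt2 call (-0.80 to -0.74). From 5 to 15 weeks only Tfrc was called, 2.17-fold lower, beside 8.37% of genes called (4.08% higher, 4.3% lower), and 5 of 10 alternatives brought it under 2-fold (-0.98 to -0.67). Hamp2 and Id1 were thus called from the first array on the diet onwards, Tfrc from 10 weeks, and Mt1 and Mt2 at 15 weeks only.

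The rest of the iron pathway was read through lists of genes with known roles. Of 14 genes of iron uptake 11 were measured against 0 weeks, with none called at 5 weeks, 1 higher at 10 weeks, and 1 higher and 1 lower at 15 weeks. The gene called higher was Steap4, a metalloreductase, with log2 differences of 0.14, 1.61 and 1.74 at the 3 times. Tfr2, the second transferrin receptor, which senses iron-bound transferrin on hepatocytes, was 2.16-fold lower at 15 weeks (-1.11), after -0.38 and -0.07. Slc39a14, the zinc transporter family member that takes up iron not bound to transferrin, had differences of 0.45, 0.99 and 0.12. Scara5, a ferritin receptor, was not well above background at 0 weeks and at least 5.39-fold, 8.35-fold and 2.37-fold higher at 5, 10 and 15 weeks. These bounds are set against its own dim signal at 0 weeks. The list's medians were -0.28, 0.01 and -0.35, beside -0.02, -0.01 and -0.25 for all genes.

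Storage, export and sensing genes gave 0 calls among 10 measured of 11 at each of these times. The ferritin heavy chain Fth1 had log2 differences of -0.15, 0.06 and -0.12. The light chain Ftl1 had -0.07, 0.09 and -0.48 on its main probe, but -0.02, 0.14 and -0.04 on the other. Ireb2, an iron regulatory protein that binds Tfrc messenger RNA, had -0.04, -0.05 and -0.51, and Heph, a ferroxidase that works with ferroportin, came closest to a call with 0.98 at 15 weeks. These are messenger RNA levels, iron itself was not measured, and its part in the Tfrc result was not tested.

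Genes that carry the BMP signal to hepcidin were mostly level too. Of 22, 21 were measured, with no calls at 5 or 10 weeks and 1 in each direction at 15 weeks, and their medians were -0.09, 0.03 and -0.11. Acvrl1, an endothelial BMP receptor, was 2.34-fold higher at 15 weeks (1.23). Fgl1, a secreted hepatocyte protein reported to bind BMP6, was 2.49-fold lower (-1.31), with its other probes at -1.24 and -1.16. Bmper, a secreted BMP-binding protein, was 2.34-fold higher at 15 than at 10 weeks. Hjv, the hemojuvelin co-receptor, had -0.08, 0.00 and -0.05, and Tmprss6, the protease that cuts hemojuvelin, -0.11, 0.09 and -0.28. Erfe, the hormone that red-cell precursors send to lower hepcidin, was not above background on any array.

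Id1 was accompanied by some, not all, of the other SMAD targets. Of 8 further targets 6 were measured, with 0 calls at 5 weeks, Id3 called higher at 10 weeks, and Id3 higher and Smad9 lower at 15 weeks. Id3, a close relative of Id1, had log2 differences of 0.76, 1.43 and 1.43. Id2 and Id4, the other family members, had 0.47, 0.55 and 0.31, and 0.48, 0.33 and 0.81. Smad9 had 0.66, 0.00 and -1.03. Smad7 and Bambi, inhibitors that the pathway induces, were not above background on any array. Medians of 0.48, 0.21 and 0.38 were above those of all genes, in a list of 6 genes.

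The IL6-STAT3 list held the most calls of the 8 pathway lists against 0 weeks. It and the zinc and copper list were the longest, at 24 genes each. Of its genes 21 were measured, and 2, 6 and 6 were higher at 5, 10 and 15 weeks, with none lower. Beside these, 2.3%, 2.92% and 5.76% of all measured genes were higher. Saa1 and Saa2, acute-phase proteins whose near-identical transcripts can share signal, led at 5 weeks with 2.79 and 3.11 on the log2 scale, and had 1.76 and 2.07 at 10 weeks and 1.53 and 1.90 at 15 weeks. Socs3, the feedback inhibitor of this pathway, had 0.99, 1.48 and 0.86, from a spot among locally bright neighbours on 2 arrays. Il1b (1.27) and Inhbb (1.04) were the others called at 10 weeks besides Steap4, and Lcn2 (1.56), Il1rn (1.11), Saa3 (1.04) and Steap4 at 15 weeks. The main probes of the fibrinogen genes Fga, Fgb and Fgg, hepatocyte acute-phase genes, lay between -0.18 and 0.08 at 5 and 10 weeks. At 15 weeks they lay between -0.59 and -0.47. A second Fga probe had -0.30, -0.26 and -0.69 at 5, 10 and 15 weeks. Il6ra, the receptor, was 2.28-fold lower at 15 than at 10 weeks. Il6 itself, Il22 and Osm were not above background.

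In haem metabolism all 15 genes were measured and 0, 1 and 1 were called, with medians close to those of all genes. The call was Hmox1, the inducible haem oxygenase that frees iron from haem and is strong in macrophages, with 0.72, 1.08 and 1.67 on its main probe and 0.53, 0.76 and 1.27 on the other. Alas1, the rate-limiting enzyme of haem synthesis in liver, had 0.25, 0.88 and -0.25 on its main probe, and was 2.18-fold lower at 15 than at 10 weeks. Its other probe had 0.79, 1.26 and -0.22, which is over 2-fold higher at 10 weeks, and -1.48 at 15 against 10 weeks. Hmox1 was thus higher at each later time while macrophage markers were higher too, and the part of those cells was not tested.

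For the metallothioneins, zinc and copper genes and glucocorticoid-induced genes were listed. Of 24 zinc and copper genes 22 were measured, and 1 was lower at 5 weeks, 1 lower at 10 weeks and 1 higher at 15 weeks. The lower gene was Slc39a4, a zinc importer, with -1.37, -1.45 and -0.90, and the higher one Slc39a5, another importer, with 0.95, 0.77 and 1.47. Slc39a9 was 2.21-fold lower at 15 than at 10 weeks. Slc30a1, the zinc exporter that the zinc sensor MTF1 turns on together with the metallothioneins, had -0.14, -0.08 and -0.50, and Mtf1 itself -0.02, 0.28 and 0.36. Mt3, the brain metallothionein, had -0.26, 0.17 and -0.40, and Mt4 was not above background on any array.

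All 12 glucocorticoid-induced genes were measured, with 1 higher at 5 weeks, none called at 10 weeks, and 1 higher and 4 lower at 15 weeks. The median at 15 weeks was -0.75, beside -0.25 for all genes, and 10 of the 12 had a difference below 0. The lower genes were Fkbp5, a chaperone of the glucocorticoid receptor (-1.92), Tat, tyrosine aminotransferase (-1.67), Tsc22d3 (-1.25) and Zbtb16 (-1.03, after 1.15 at 5 weeks); the higher one was Lcn2 (1.56), which is also on the IL6-STAT3 list. Dusp1 was 2.06-fold higher at 10 than at 5 weeks. At 5 and 10 weeks the medians were -0.12 and -0.15, and Fkbp5 had -0.07 and 0.11.

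**Figure D4:**
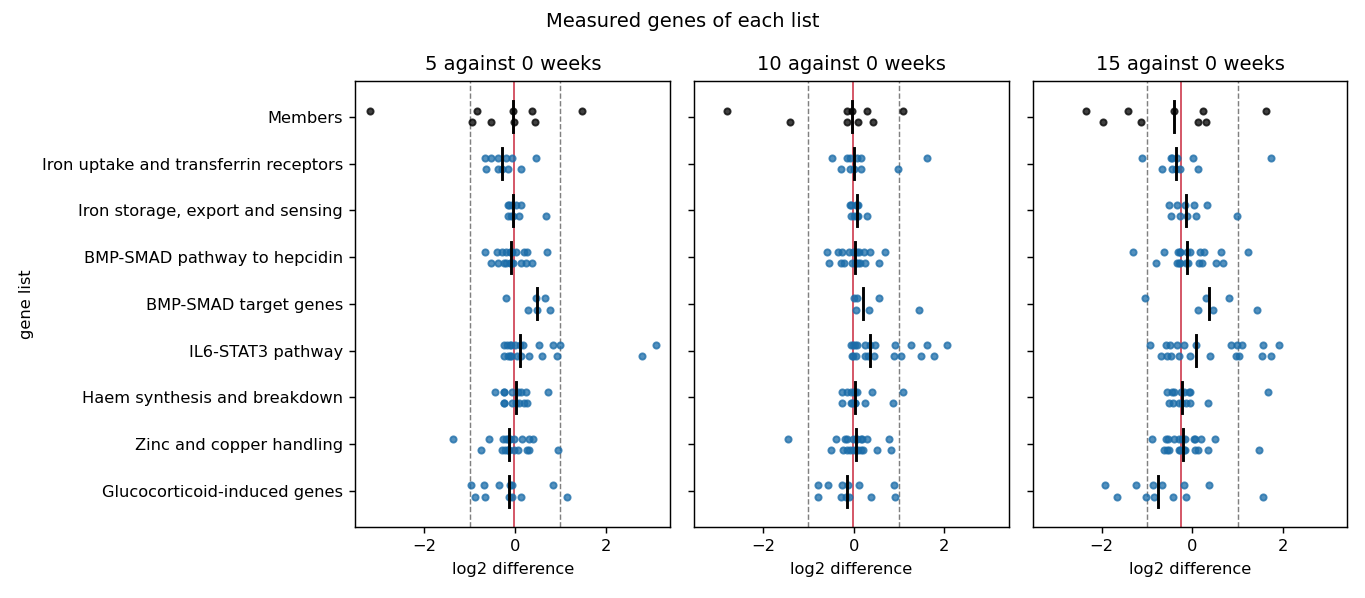
Log2 difference from 0 weeks (horizontal axis) of every measured gene in each list (rows) at 5, 10 and 15 weeks (panels); each point is a gene, black bars are list medians, the red line is the median of all measured genes and dashed lines mark 2-fold. Hamp2 is the farthest point to the left in the top row of each panel, Saa1 and Saa2 are the points beyond 2 in the IL6-STAT3 row at 5 weeks, and the glucocorticoid row is shifted left at 15 weeks, to a median of -0.75.

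Likeness between genes was measured as the root mean square of the difference between 2 genes' log2 differences from 0 weeks at the 3 times, over 16683 other genes above background on all 4 arrays. With 3 values per gene, all relative to 1 array, it describes these arrays and no more. Few genes were near Hamp2: only Akr1b7, an aldo-keto reductase, was within 0.25 (at 0.149, with differences of -3.22, -2.56 and -2.43). Next to Hamp2 after it were Ptgds (0.294) and Vsig2 (0.515). Psd (0.0713), the cold-inducible RNA-binding protein gene Cirbp (0.114) and Fam71e1 (0.193) were nearest to Tfrc, which had 14 genes within 0.25. For Id1, which had 12, the nearest were the amino acid transporter Slc7a8 (0.101), the transcription factor Ets1 (0.138) and P2ry13 (0.164).

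The other members had more company. Serpina3c (0.0694), Tm6sf2 (0.113) and Rpl36al (0.130) were nearest to Mt2, with 49 genes within 0.25. Nearest to Mt1, with 326 within 0.25, were Kyat1 (0.0772), Nxph4 (0.0797) and Tfr2 (0.0865). Bmp6 had 851 such genes, Hamp 1705, Slc40a1 1768 and Trf 7155, and these are the 4 genes with no call in any comparison. Among their nearest were Trp53, C9orf72 and Mns1 for Bmp6, Smg1 and Fcgr2b for Hamp, Pla2g15, B230307C23Rik and Necab2 for Slc40a1, and Wdr5 and Ddx59 for Trf.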

How the data were processed

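Liver RNA (100 ng a sample) was labelled with Cy3 and hybridised to Agilent 1-colour arrays, 1 per time, per the labels. The authors' scanner files hold processed signal, a linear intensity that is background-corrected by Agilent Feature Extraction 10.7.3.1, per the file headers; probe positions are mm9, per the file headers. The deposited value table holds the same intensity divided by each array's median, as a ratio with a median of 1 in every column; the scanner values bear this out, so its scale and direction are known.

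Spots marked as outliers and control spots were left out, spots of a probe were averaged, and log2 signal was scaled to each array's 75th percentile. A gene was read by its probe of highest mean signal. Differences needed a signal well above background on both arrays, and calls were made at 2-fold. Where 1 side was dim, a bound was computed. It was set against the lowest signal well above background on that array, or against the dim signal itself where that was higher. Of the probes, 27497 were named through accessions, 24219 kept the scanner name, 3548 matched a symbol and 404 an older one, and the 13 probes of the 9 genes kept their scanner names. A spot was locally bright where at least 25% of neighbours within 3 rows and columns were 2-fold over their other arrays. Python 3.11.15 (pandas 2.3.3, numpy 2.4.6), R 4.3.3 and limma 3.58.1 (normexp with offset 50 and quantile alternatives) were used, and the calls were tested on simulated data. The 10 alternatives covered scaling, background correction, the dim-probe filter, the probe of a gene, outlier and locally bright spots, and the deposited values.

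The 9 genes, the lists and the markers were chosen with earlier results of these data known. Named beyond the 9 genes are list genes at least 2-fold different from 0 weeks or between successive times, up to 4 others a list for their role, and the 3 genes most like each of the 9; a few genes these rules take are not reported here. The precision is limited by having 1 array per time.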

Additional observations from a re-analysis of the deposited data

How the results depend on the processing

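Of 54 values (9 genes in 6 comparisons), 13 were calls; 7 of these held in all 10 alternatives, and no call turned its direction. The 6 that some alternative lost were Id1 at 10 weeks, Mt1 and Mt2 at 15 weeks against 0 and against 10 weeks, and Tfrc at 15 against 5 weeks. Of the 41 values within 2-fold 38 stayed so; the others were Mt2 at 5 weeks, Hamp2 at 15 against 5 weeks and, with spike-in scaling only, Id1 at 15 against 10 weeks (1.08). The call of Mt1 at 15 against 10 weeks was lost in 7 alternatives (-0.92 to -0.51). Counts over all genes, both directions together, moved by over 1.5 times in 2 alternatives. With normexp they were 276, 341 and 979 at 5, 10 and 15 weeks against 0, then 147, 615 and 739 for 10 against 5, 15 against 10 and 15 against 5 weeks, where the counts in use were 662, 763, 1895, 357, 1401 and 1459; an offset of 50 draws dim signals together by construction. With no filter on dim probes they were 3456, 3791, 5341, 3127, 5250 and 4888, since dim genes then enter. By direction scaling moved them further: at 15 weeks against 0, 1011 were higher and 884 lower, but 1994 and 322 with spike-ins and 1339 and 541 with the percentile of detected probes. The share of called genes that were higher at 15 against 10 weeks was 49.3%, and 59.7% to 89.2% under other scalings; at 15 against 5 weeks it was 48.7%, and 57.6% to 83.4%; at 10 against 5 weeks 45.7%, and 35.1% with spike-ins. No paired analysis was possible because each time has 1 array, and no replicate could be left out. Signal near background limits Bmp6 and the dimmer Tfrc probes. Scaling to the array median and the deposited values are the same scaling, counted as 2 of the 10.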
